A study of Homo sapiens with 9 samples.

Results

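Collagens were taken as every protein-coding gene whose symbol had the form COL, a type number, A and a chain number. All 44 such genes in the annotation had a row in the count table, which held 58735 gene rows in all. RNA from 786-0 cells, an established line of clear cell renal cell carcinoma, was sequenced in 9 libraries. According to the methods, the line lacks a working VHL gene, carries a mutation that inactivates HIF1α, and constitutively expresses HIF2α (encoded by EPAS1). The libraries compare inhibition of HIF2α by a small molecule with loss of HIF2α by gene knockout, as the sample labels name it. The 3 groups of 3 replicates were untreated 786-0 WT cells, WT cells given 10 µM PT2385, an inhibitor of HIF2α, for 48 h, and 786-0 HIF2α KO cells without the inhibitor. All cells were grown in the same low-glucose medium with serum at 21% O2. How many KO lines or clones were used is not given in the sources used here. Loss of HIF2α and any other difference between KO and WT cells therefore cannot be told apart. Whether the WT libraries were given the vehicle of PT2385 is likewise not given.

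Collagens are secreted or membrane-bound proteins built from α chains that wind into a triple helix. Fibrillar collagens form the striated fibrils of connective tissue, type IV collagen forms the sheet-like network of basement membranes, type VI collagen forms beaded microfilaments next to basement membranes, and FACIT collagens (fibril-associated collagens with interrupted triple helices) sit on the surface of fibrils. A trimer may hold copies of a single chain or of several chains, so the supply of each chain bears on which trimers a cell can assemble. In the kidney, basement membranes surround every tubule, and clear cell renal cell carcinoma arises from tubular epithelium.

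Library totals ran from 11881000 to 14730081 counts, at which 3 counts correspond to between 0.204 and 0.253 CPM (counts scaled to the normalized library size). EPAS1 RNA was read beside the knockout label, with 270.3, 264 and 233 CPM in WT, 248, 248 and 219 CPM with PT2385 and 20.2, 24.9 and 21.1 CPM in KO. Its log2 fold change in KO against WT was -3.52 (standard error 0.0963, edgeR adjusted p = 2.15e-09). EPAS1 RNA was thus lower but still counted in KO, and a lower RNA level cannot tell a knockout from a knockdown. The knockout is named by the sample labels, while the methods describe silencing of HIF2α by siRNA and no knockout line. The renal transcription factor PAX8 had between 6975 and 9881 counts in every library, whereas CA9, another gene of clear cell carcinoma, was at 0 counts in all 9. Of the other cell types checked, 4 endothelial markers summed to at most 2 counts in a library and 3 leukocyte markers also to at most 2. The 7 fibroblast markers, of which 3 were at 0 in every library, summed to between 3.69 and 4.26 CPM in WT, 4.47 and 5.68 CPM with PT2385 and 3.09 and 5.89 CPM in KO.

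Of the 44 chains, 12 were at 0 counts in all 9 libraries, 17 had enough counts to be tested in at least 1 comparison, and the other 15 had a few counts that did not pass the filter. The 12 silent chains were COL1A2, COL2A1, COL3A1, COL5A1 and COL5A3 among the fibrillar collagens, COL9A1, COL19A1, COL21A1 and COL22A1 among the FACITs, and COL10A1, COL25A1 and COL26A1. In each class that left 4 tested of 11 fibrillar chains, 3 of 6 type IV chains, 2 of 3 chains associated with basement membranes, 3 of 5 type VI chains, 3 of 10 FACITs, 1 of 3 short-chain network collagens and 1 of 4 transmembrane collagens. Neither of the 2 remaining chains was tested. No chain outside the 17 had more than 12 counts in a library.

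Collagen transcripts took up between 0.231% and 0.233% of all counted reads in WT, 0.261% and 0.268% with PT2385 and 0.224% and 0.233% in KO. The PT2385 range lay above both others. In each group 4 chains, COL4A2, COL4A1, COL7A1 and COL18A1, held most of the collagen signal, with 75.1% of the collagen CPM in WT, 77.4% with PT2385 and 77.6% in KO. All of them encode collagens of the basement membrane zone.

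Per kilobase of transcript (RPKM, with the length of the canonical transcript), COL4A2 stood first in WT at 88.5 ± 0.765 RPKM (SD, n = 3), followed by COL4A1 at 63.0 ± 0.902 RPKM. COL7A1 at 53.3 ± 1.30 RPKM and COL18A1 at 51.5 ± 2.23 RPKM came next, and their libraries overlapped, so the order of this pair was not set by the data. COL8A1 (33.5 ± 2.60 RPKM) and COL6A3 (17.9 ± 1.16 RPKM) followed without overlap, then COL27A1 and COL6A2, which overlapped at 14.3 ± 0.311 and 13.8 ± 1.38 RPKM, and COL6A1 at 4.34 ± 0.204 RPKM. Every other chain had a WT mean under 1 RPKM. The order depended in part on the length used. The WT ratio of COL6A3 to COL6A2 was 1.30 with the canonical transcript and 0.987 with all annotated exons as length. The order in KO was different: COL4A2 was again first at 104.4 ± 2.35 RPKM, COL18A1 and COL4A1 overlapped at 65.8 ± 2.52 and 62.3 ± 2.35 RPKM, and COL6A2 and COL6A1 stood ahead of COL27A1 at 27.4 ± 2.70 and 21.3 ± 2.26 RPKM, while COL6A3 had gone down to 2.42 ± 0.565 RPKM.

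**Figure D1:**
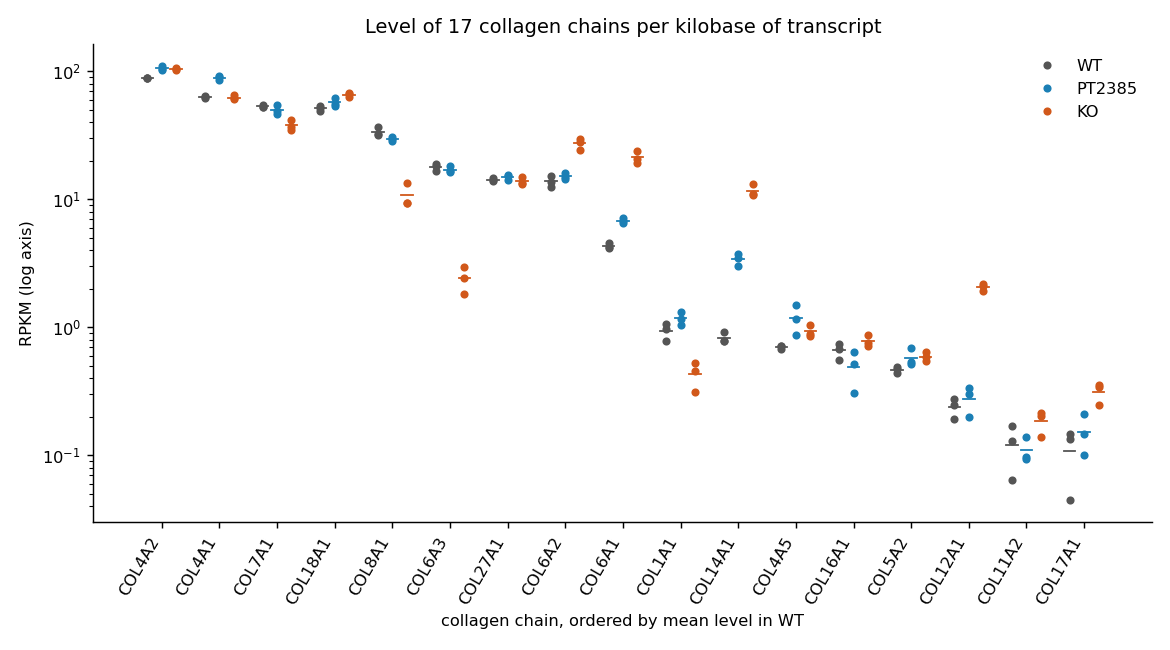
Level of the 17 tested collagen chains in RPKM on a log axis, ordered by the WT mean, with a point for each library and a short line for the mean of each group. Most PT2385 points lie close to the WT points, whereas the KO points stand apart for COL8A1, COL6A3, COL6A1, COL14A1 and COL12A1.

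By class, type IV chains made up 44.2% ± 0.356 of the summed collagen RPKM in WT, 49.8% ± 0.463 with PT2385 and 46.1% ± 0.511 in KO (SD, n = 3). The basement membrane associated chains made up 30.4% ± 0.245, 27.3% ± 0.915 and 28.5% ± 1.52. Their summed level was 104.8 ± 1.57 RPKM in WT, 107.3 ± 5.75 RPKM with PT2385 and 103.5 ± 4.49 RPKM in KO. The type IV shares of the 3 groups did not overlap between libraries. Type VI chains stood at 10.5% ± 0.736 in WT, 9.94% ± 0.316 with PT2385 and 14.1% ± 0.895 in KO. Their share of the collagen CPM, without division by length, was 10.9% in WT, 9.93% with PT2385 and 9.10% in KO. The type VI share in KO was thus above WT per length and below WT in CPM. Short-chain network collagens stood at 9.73% ± 0.691, 7.52% ± 0.316 and 2.95% ± 0.585. Fibrillar collagens were at 4.60% ± 0.115, 4.28% ± 0.243 and 4.16% ± 0.206, with summed levels of 15.8, 16.8 and 15.1 RPKM. With PT2385 the lower shares of the fibrillar and basement membrane associated classes thus did not go with lower mean levels. FACITs were at 0.547% ± 0.0379, 1.10% ± 0.114 and 4.07% ± 0.479. The FACIT share was therefore lowest in every WT library and highest in every KO library, while the short-chain share had the opposite order.

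**Figure D2:**
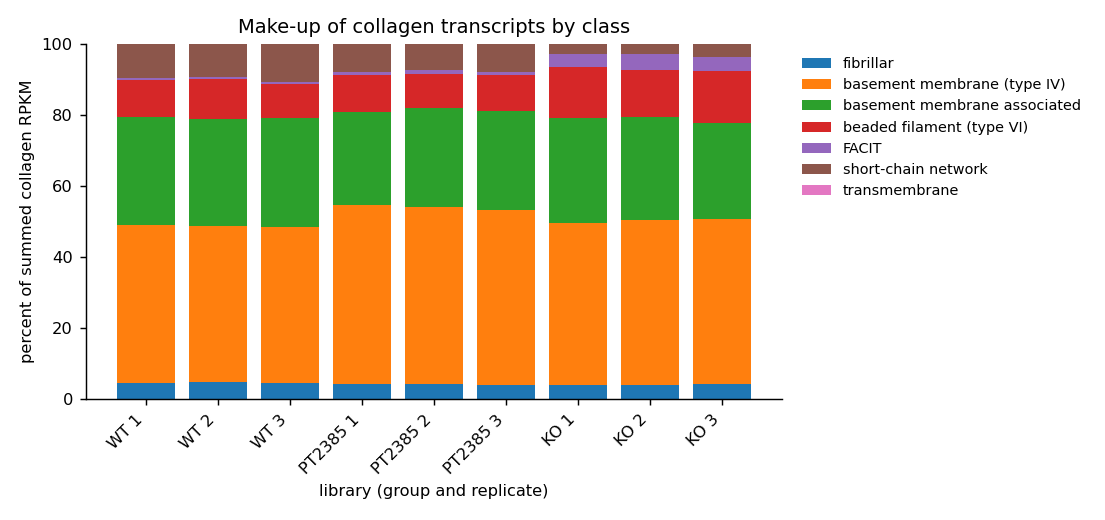
Share of each collagen class in the summed collagen RPKM (percent) of each library, as stacked bars. Type IV and basement membrane associated chains together fill most of each bar, the short-chain segment is thin in the 3 KO libraries, and the FACIT segment is visible mainly there.

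PT2385 raised 5 of the 16 chains tested against WT, namely COL14A1, COL4A1, COL4A2, COL4A5 and COL6A1, and lowered none at an adjusted p under 0.05. In the same comparison 7.7% of all tested genes were called, 3.08% as higher and 4.62% as lower. The 5 chains belong to FACIT, type IV and type VI collagens, and no fibrillar chain was among them. At an unadjusted p under 0.05 there were 6 higher chains and 1 lower chain, COL8A1, and DESeq2 called 0 lower. Replicate numbers paired the WT and PT2385 libraries. Blocking on that number, COL18A1 was also called higher (log2 fold change 0.15, adjusted p = 0.0401) and COL8A1 lower (adjusted p = 0.0196), against 0.211 and 0.133 without it. The blocked fit called 15.3% of all genes, 6.83% as higher and 8.45% as lower. In bulk RNA, fewer cells expressing a gene and less RNA per cell cannot be told apart.

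KO cells differed from WT in 11 of 17 tested chains, with 7 higher (COL14A1, COL12A1, COL6A1, COL17A1, COL6A2, COL18A1 and COL4A2) and 4 lower (COL6A3, COL8A1, COL1A1 and COL7A1). The share of all tested genes called in that comparison was 30.1%, with 14.7% higher and 15.4% lower. At least 2-fold differences were found for 8 of these chains in KO, where 6.86% of all genes passed the same rule, and for 1 chain with PT2385, where 1.63% did. COL17A1 and COL11A2 passed the count filter in all libraries of KO but not of WT. Without this pair, 10 of 15 chains were called in KO, with 6 higher and 4 lower, and 7 were called at 2-fold or more. The median log2 fold change of the tested chains was 0.19 with PT2385 and 0.25 in KO without this pair, and over all tested genes it was 0.00 in both. In 12 of the 15 chains the KO and WT libraries did not overlap, as in 43.8% of all tested genes, and in 8 of 16 the PT2385 and WT libraries did not overlap, as in 26.1%.

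Because both comparisons used the same WT libraries, the difference between KO and PT2385 was tested directly. It was called in 9 of 17 chains, with COL12A1, COL14A1, COL6A1 and COL6A2 higher and COL6A3, COL8A1, COL1A1, COL4A1 and COL7A1 lower in KO. In that comparison 18.8% of all tested genes were called, 8.47% as higher and 10.3% as lower. At least 2-fold differences were found for 6 of these chains and 4.79% of all genes, and the groups did not overlap in 11 of the 15 chains left without COL17A1 and COL11A2 and in 35.4% of all genes. COL14A1 and COL6A1 were called in all 3 comparisons, and for both the PT2385 libraries lay between the WT and the KO libraries.

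**Figure D3:**
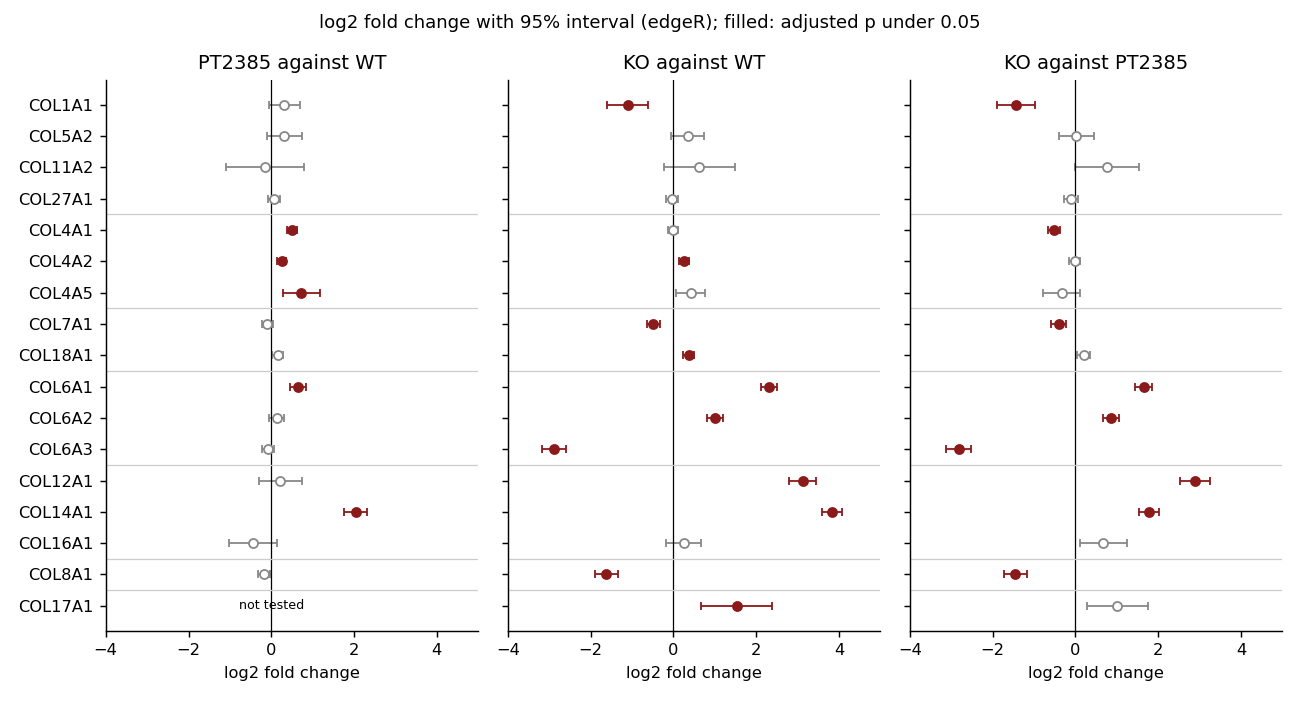
Log2 fold change of each tested chain with its 95% interval in the 3 comparisons, with horizontal lines between the classes. Filled points mark an adjusted p under 0.05 (edgeR). COL14A1 lies farthest to the right in the left and middle panels (2.04 and 3.83) and COL6A3 farthest to the left in the middle and right panels (-2.88 and -2.83).

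Type IV collagen is the core network of basement membranes, and the common trimer joins 2 products of COL4A1 to 1 product of COL4A2. Both genes lie head to head on chromosome 13, COL4A1 (ENSG00000187498) from 110148963 to 110307157 on the minus strand and COL4A2 (ENSG00000134871) from 110305812 to 110513209 on the plus strand. Their gene bodies overlapped in the annotation but shared 0 exonic bases. The RefSeq promoter window of COL4A1 (GRCh38.p14, chr13:110307108-110307407, minus strand), which runs from 250 bases before to 50 bases after the start site, is shown because these neighbours share it and yet had different responses.
COL4A1: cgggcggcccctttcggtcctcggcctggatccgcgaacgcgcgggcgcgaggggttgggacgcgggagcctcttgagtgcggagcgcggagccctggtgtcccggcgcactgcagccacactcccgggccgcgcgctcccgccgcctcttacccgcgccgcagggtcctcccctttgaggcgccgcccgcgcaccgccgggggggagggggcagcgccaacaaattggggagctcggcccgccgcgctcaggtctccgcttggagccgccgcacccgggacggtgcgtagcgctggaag
It had 226 bases in common with the window of COL4A2, the annotated start sites were 127 bases apart, and it held 45 CpG dinucleotides.

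COL4A1 was at 419, 408 and 409 CPM in WT, 588, 599.7 and 557 CPM with PT2385 and 403, 395 and 424 CPM in KO. The PT2385 libraries stood above all others and the KO libraries overlapped WT. With PT2385 COL4A1 rose 1.41-fold (log2 fold change 0.49, standard error 0.0538, adjusted p = 9.25e-05). In KO the difference from WT was -0.0017 on the log2 scale, with a 95% interval from -0.12 to 0.12, and KO was 1.43-fold lower than PT2385 (adjusted p = 2.56e-04).

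COL4A2 was at 567, 568 and 576 CPM in WT, 656, 671 and 713 CPM with PT2385 and 668, 661 and 689.9 CPM in KO. All libraries of both other groups were above WT, and the 2 groups overlapped each other. COL4A2 rose 1.19-fold in each, by 0.25 on the log2 scale, with a standard error of 0.0531 and an adjusted p of 0.0129 for PT2385 and of 0.0519 and 0.00367 for KO. The difference between KO and PT2385 was -0.02 on the log2 scale, with a 95% interval from -0.15 to 0.12. The PT2385 call was lost without PT2385 replicate 2 (adjusted p = 0.0676), without WT replicate 1 (0.0602) and without WT replicate 2 (0.0753). That call was kept in the fit blocked on the replicate number (adjusted p = 4.92e-04).

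As a result the ratio of COL4A1 to COL4A2 per length moved in opposite directions from WT. It was 0.712 ± 0.0145 (SD, n = 3) in WT, 0.845 ± 0.0651 with PT2385 and 0.597 ± 0.00898 in KO. No libraries overlapped between groups, and each pair of groups gave p = 0.1 in an exact two-sided permutation test, the smallest p that 3 against 3 allows. The absolute ratio depended on the length used: with all annotated exons as length it was 0.949, 1.13 and 0.796 in WT, PT2385 and KO.

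COL4A5 encodes a chain of the specialised type IV network of the glomerular basement membrane and is mutated in Alport syndrome. It was expressed at a far lower level, at 4.69, 4.44 and 4.68 CPM in WT, 7.66, 9.71 and 5.66 CPM with PT2385 and 5.63, 6.79 and 5.84 CPM in KO. All PT2385 and KO libraries were above WT, but the PT2385 values were widely spread. With PT2385 it rose 1.66-fold (0.73 on the log2 scale, standard error 0.202, adjusted p = 0.0473), a call that was lost when any replicate other than PT2385 replicate 3 was left out, with an adjusted p between 0.0606 and 0.219, or when at least 10 counts were required in every library (0.0503). In the fit blocked on the replicate number the PT2385 call was kept (adjusted p = 0.0116). The KO value of 0.42 was not called (adjusted p = 0.0717). COL4A3 and COL4A4, the other chains of that network, had at most 3 counts in any library, and COL4A6 at most 1.

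COL18A1 and COL7A1 are found with basement membranes. COL18A1 (chromosome 21, 45405165 to 45513720) encodes the collagen whose C-terminal fragment is endostatin, and COL7A1 (chromosome 3, 48564073 to 48595329) encodes the anchoring fibrils that tie epithelial basement membranes to the tissue beneath. COL18A1 was at 278, 266 and 291 CPM in WT, 292, 302 and 334 CPM with PT2385 and 361, 366 and 340.2 CPM in KO. KO libraries were the highest, WT libraries the lowest, and none overlapped. The rise in KO was 1.29-fold (log2 fold change 0.37, standard error 0.0596, adjusted p = 7.99e-04), and the KO value against PT2385 was 0.20 (adjusted p = 0.0787). COL18A1 shares 1563 exonic bases with SLC19A1, a folate carrier transcribed from the other strand, which summed to 14721 counts against 37398 for COL18A1. SLC19A1 had log2 fold changes of 0.14 with PT2385 and -0.04 in KO, and neither was called. Whether counting used the strand is not given in the sources used here, and the part of these shared bases in the COL18A1 result was not tested. Any other gene sharing exonic bases with a tested chain summed to at most 21 counts.

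COL7A1 went the other way. Its libraries were at 483, 505 and 488 CPM in WT, 431, 501 and 455 CPM with PT2385 and 385, 321 and 340.2 CPM in KO, and KO lay below all other libraries. It fell 1.40-fold in KO against WT (log2 fold change -0.48, standard error 0.0703, adjusted p = 3.89e-04) and was 1.33-fold lower in KO than with PT2385 (adjusted p = 0.0061, or 0.0507 without PT2385 replicate 2). With PT2385 the value was -0.09, with a 95% interval from -0.23 to 0.04.

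Type VI collagen is assembled from COL6A1, COL6A2 and COL6A3 products, and all of these chains are needed for the classical trimer. In KO, COL6A1 and COL6A2 rose while COL6A3 fell. The ratio of COL6A1 to COL6A2 per length was 0.317 ± 0.0430 (SD, n = 3) in WT, 0.450 ± 0.00768 with PT2385 and 0.777 ± 0.0352 in KO. With all annotated exons as length it was 0.373, 0.528 and 0.913. COL6A1 (ENSG00000142156, chromosome 21, 45981770 to 46005050) was at 17.6, 17.9 and 19.2 CPM in WT, 27.5, 28.5 and 29.8 CPM with PT2385 and 87.4, 81.4 and 99.9 CPM in KO. The 3 groups were fully separated in that order. It rose 1.56-fold with PT2385 (log2 fold change 0.64, standard error 0.089, adjusted p = 6.47e-04) and 4.95-fold in KO (2.31, standard error 0.0923, adjusted p = 2.04e-08), and KO exceeded PT2385 3.13-fold (adjusted p = 1.62e-06).

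COL6A2 lies next to COL6A1 on chromosome 21, from 46098112 to 46132848. Its libraries were at 46.7, 52.7 and 43.3 CPM in WT, 50.01, 51.1 and 55.4 CPM with PT2385 and 97.2, 84.2 and 102 CPM in KO. Only KO stood apart. The rise in KO was 2.01-fold (standard error 0.0931 on the log2 scale, adjusted p = 1.41e-05). With PT2385 the value was 0.13, with a 95% interval from -0.06 to 0.32.

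COL6A3 (ENSG00000163359, chromosome 2, 237324003 to 237414328) encodes the longest of these chains. It was at 191, 200.1 and 176 CPM in WT, 192, 174 and 174 CPM with PT2385 and 31.3, 25.8 and 19.4 CPM in KO. WT and PT2385 overlapped, and every KO library was far below them. The fall in KO was 7.37-fold (log2 fold change -2.88, standard error 0.134, adjusted p = 6.59e-08), while the PT2385 value was -0.07 with a 95% interval from -0.22 to 0.08. KO was 7.09-fold below PT2385 (adjusted p = 7.25e-07). Per length, COL6A3 exceeded COL6A1 in WT with a ratio of 4.14 ± 0.430 (SD, n = 3). That ratio was 2.52 ± 0.237 with PT2385 and 0.116 ± 0.0341 in KO. Neither ratio overlapped WT, and both gave p = 0.1 in the exact permutation test, its smallest possible value. With all annotated exons as length the ratio was 2.67 in WT, 1.62 with PT2385 and 0.0745 in KO. The ratio of COL6A3 to COL6A2 per canonical length was 1.30 ± 0.0517 in WT, 1.13 ± 0.114 with PT2385 and 0.0891 ± 0.0236 in KO. There the PT2385 libraries overlapped WT (p = 0.2 in the same permutation test), and the KO libraries did not (p = 0.1). COL6A5 and COL6A6 had at most 1 count in a library.

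**Figure D4:**
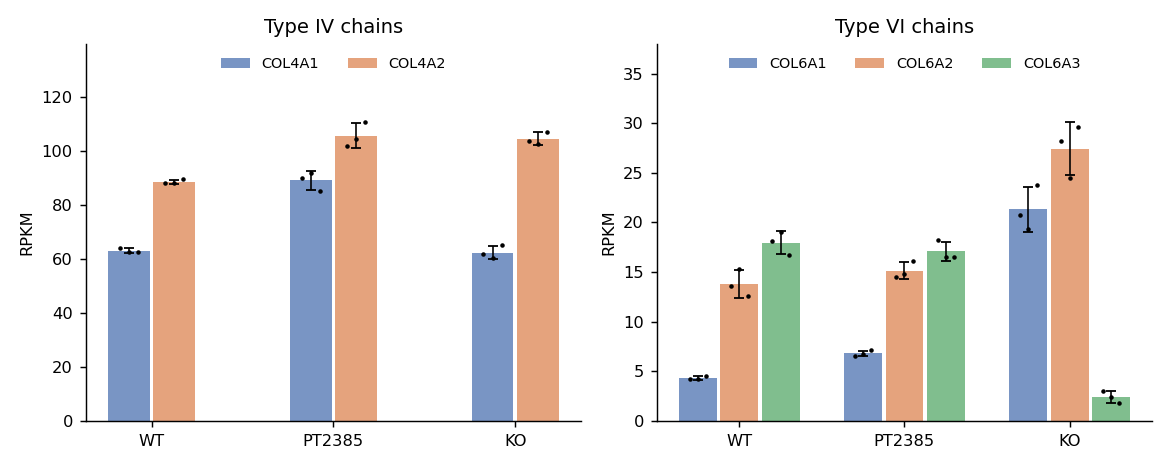
RPKM of the main type IV chains (left) and type VI chains (right) in each group, as bars for the mean of 3 libraries with points for the libraries and error bars for the SD. COL4A1 is highest with PT2385 (88.9 RPKM), and in KO COL6A1 and COL6A2 are high (21.3 and 27.4 RPKM) while COL6A3 is low (2.42 RPKM).

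The FACITs COL14A1 and COL12A1 encode fibril-associated collagens that are related in domain structure. COL14A1 (ENSG00000187955), on chromosome 8 between 120059780 and 120373573, was at 6.28, 6.25 and 7.35 CPM in WT, 24.1, 30.0 and 27.9 CPM with PT2385 and 88.0, 105.7 and 87.2 CPM in KO. The 3 groups were separated, with PT2385 between WT and KO. It rose 4.11-fold with PT2385 (log2 fold change 2.04, standard error 0.125, adjusted p = 5.62e-07) and 14.2-fold in KO (3.83, standard error 0.113, adjusted p = 2.82e-09). The KO level was 3.42-fold above that with PT2385 (adjusted p = 1.98e-06). Of the 17 chains, COL14A1 had the highest fold change against WT in both comparisons.

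COL12A1 (ENSG00000111799, chromosome 6, 75084326 to 75206267) differed only in KO. It was at 2.26, 3.21 and 2.93 CPM in WT, 2.34, 3.51 and 3.91 CPM with PT2385 and 22.6, 24.7 and 25.5 CPM in KO. WT and PT2385 overlapped, with a log2 fold change of 0.22 and a 95% interval from -0.31 to 0.75. The rise in KO was 8.72-fold (3.12, standard error 0.147, adjusted p = 6.79e-08), and KO was 7.38-fold above PT2385 (adjusted p = 1.7e-06).

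COL16A1, a FACIT found with both fibrils and microfibrils, was called in none of the comparisons. Its libraries were at 4.02, 3.70 and 3.01 CPM in WT, 2.82, 3.51 and 1.68 CPM with PT2385 and 4.71, 3.88 and 4.12 CPM in KO. The log2 fold changes against WT were -0.43 with PT2385 (95% interval from -1.01 to 0.14) and 0.25 in KO (from -0.17 to 0.68).

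COL8A1 (chromosome 3, 99638475 to 99799226) encodes a short-chain collagen of the subendothelial matrix and of Descemet's membrane in the eye. It was at 179, 174 and 201 CPM in WT, 164, 157 and 168 CPM with PT2385 and 52.1, 51.5 and 74.3 CPM in KO. PT2385 lay below WT without overlap but close to it, and KO was well below both. COL8A1 fell 3.09-fold in KO (log2 fold change -1.63, standard error 0.125, adjusted p = 3.31e-06) and was 2.75-fold lower in KO than with PT2385 (adjusted p = 2.49e-05). Its partner chain COL8A2 had at most 2 counts in a library.

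COL17A1 encodes the transmembrane collagen of hemidesmosomes, the junctions that fix epithelial cells to the basement membrane. It had few counts, with 0.251, 0.823 and 0.752 CPM in WT, 0.565, 0.822 and 1.19 CPM with PT2385 and 1.93, 1.39 and 1.99 CPM in KO. KO was above all other libraries. It did not pass the count filter in PT2385 against WT, and only its KO libraries all passed it in the other comparisons, so its call in KO against WT rests on that filter (2.89-fold, adjusted p = 0.0113).

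Fibrillar collagens held little of the signal. COL27A1, a fibrillar chain with a shortened helix, was the most abundant of them, at 109.5, 114 and 111 CPM in WT, 119, 121 and 110.2 CPM with PT2385 and 104, 105 and 118 CPM in KO. The groups overlapped. Its log2 fold changes were 0.06 with PT2385 (95% interval from -0.08 to 0.20) and -0.02 in KO (from -0.17 to 0.12), among the narrowest intervals of any chain.

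COL1A1, which with COL1A2 makes type I collagen of bone, skin and scar, was at 5.78, 6.34 and 4.60 CPM in WT, 6.94, 7.77 and 6.15 CPM with PT2385 and 1.85, 2.70 and 3.09 CPM in KO. WT and PT2385 overlapped and KO lay below both. It fell 2.15-fold in KO (log2 fold change -1.10, standard error 0.226, adjusted p = 0.00346) and was 2.71-fold lower in KO than with PT2385 (adjusted p = 8.12e-04). The PT2385 value was 0.31 (adjusted p = 0.329). COL1A2 was at 0 counts in every library. Of the 7 fibroblast markers, DCN, PDGFRA and POSTN were at 0 in every library and FAP had at most 1 count. The other markers differed in both directions in KO. PDGFRB went from between 2.26 and 2.55 CPM in WT to at most 0.154 CPM in KO, whereas LUM went from between 1.23 and 1.84 CPM to between 2.13 and 4.16 CPM and THY1 from at most 0.168 CPM to between 0.695 and 1.59 CPM. Their part in the COL1A1 result was not tested.

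COL5A2, a chain of the collagen that regulates the width of type I fibrils, was at 3.02, 3.21 and 3.34 CPM in WT, 3.55, 3.66 and 4.68 CPM with PT2385 and 4.40, 3.74 and 3.98 CPM in KO. All libraries of both other groups were above WT, but neither log2 fold change was called (0.31, adjusted p = 0.396, and 0.35, adjusted p = 0.173). COL5A1, its usual partner, was at 0 counts throughout. COL11A2, a cartilage collagen, was at 0.838, 0.411 and 1.09 CPM in WT, 0.887, 0.598 and 0.629 CPM with PT2385 and 1.39, 1.32 and 0.893 CPM in KO. At this depth no difference was detectable, with a 95% interval in KO against WT from -0.23 to 1.49.

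**Figure D5:**
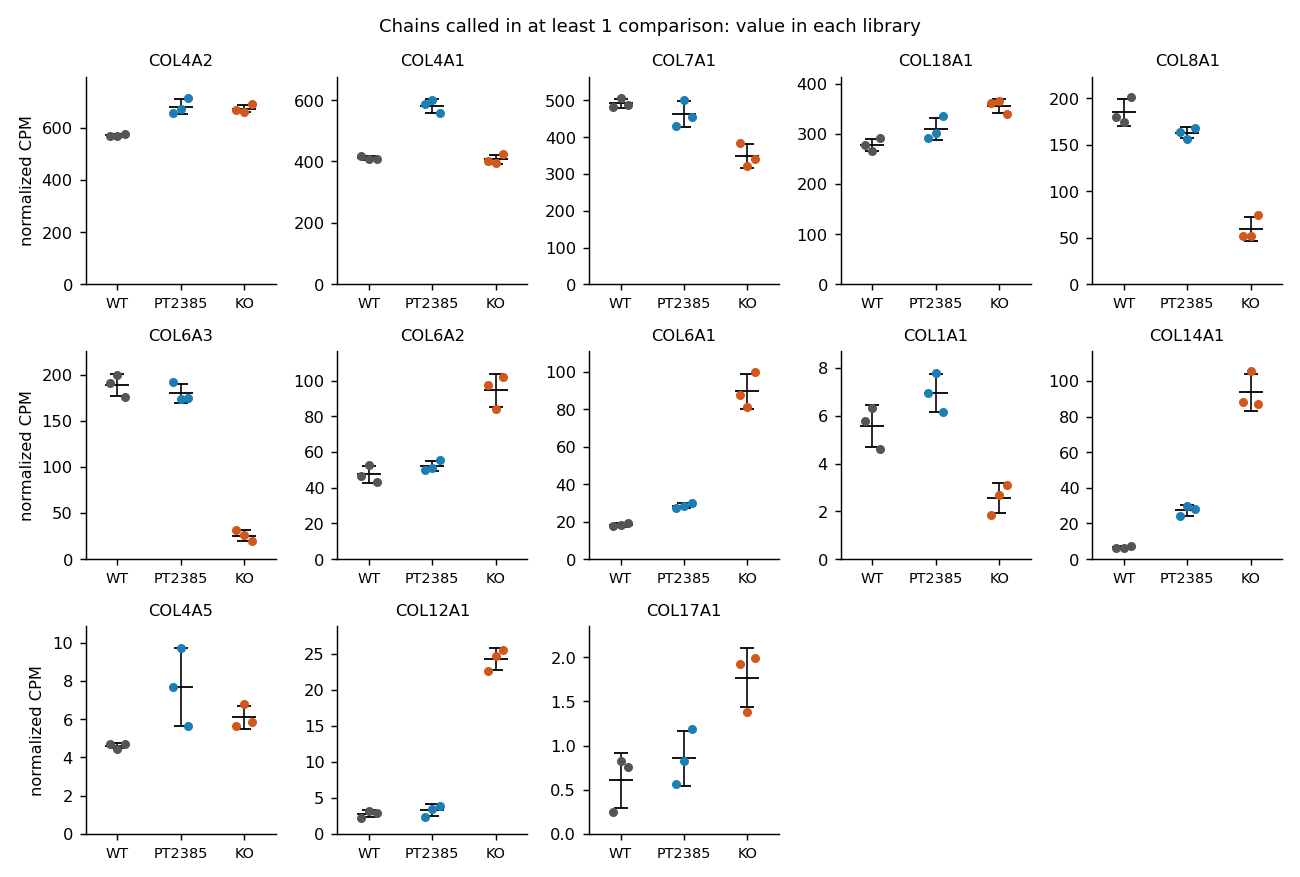
Normalized CPM in each library for the 13 chains called in at least 1 comparison, with the mean and SD of 3 libraries and each axis starting at 0. In COL6A1 and COL14A1 the PT2385 points lie between WT and KO, in COL4A1 they lie above both, and in COL6A3, COL12A1 and COL1A1 they overlap WT.

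HIF proteins bind the core letters ACGTG or GCGTG, and the RefSeq windows of 300 bases were searched for these letters on both strands. A window was listed for 32 of the 44 chains and for 12 of the 17 tested chains. Taking the most upstream window of each, either motif was found in 3 of the 12 (COL12A1, COL16A1 and COL4A2), or 25.0%, as compared with 48.4% of the most upstream windows of all 27305 genes. Counting every window of a gene, COL11A2 and COL18A1 also held a motif, which made 5 of 12, or 41.7%, as compared with 52.4% of all genes. GCGTG was present in the upstream windows of COL12A1, COL16A1 and COL4A2, and ACGTG in that of COL12A1. Windows of the chains with the largest rise and the largest fall in KO among these 12 are shown, COL12A1 (chr6:75206004-75206303, minus strand) and COL6A3 (chr2:237414115-237414414, minus strand). Capitals mark the reverse complements CACGC and CACGT of both motifs.
COL12A1: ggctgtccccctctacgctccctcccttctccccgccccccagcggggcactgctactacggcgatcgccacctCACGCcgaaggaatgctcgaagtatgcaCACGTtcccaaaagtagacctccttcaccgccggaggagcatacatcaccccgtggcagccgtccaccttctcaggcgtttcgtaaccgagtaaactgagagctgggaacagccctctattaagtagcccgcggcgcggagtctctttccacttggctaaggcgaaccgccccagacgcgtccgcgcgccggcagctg
COL6A3: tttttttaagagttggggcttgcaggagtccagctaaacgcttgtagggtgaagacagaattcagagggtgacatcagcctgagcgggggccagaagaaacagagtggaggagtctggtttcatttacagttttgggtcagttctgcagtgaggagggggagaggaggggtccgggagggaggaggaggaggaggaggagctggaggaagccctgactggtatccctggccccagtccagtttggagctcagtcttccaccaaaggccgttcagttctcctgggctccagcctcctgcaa
The COL6A3 window contained 4 CpG dinucleotides against 29 in that of COL12A1. A match of letters describes the sequence only, and distal elements were not examined.

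Collagen chains need dedicated enzymes and chaperones. A wider list of 57 genes was taken through the same fits. It covered folding and modification, export and processing, cross-linking, receptors, collagenases and gelatinases, and transcription. Of the 48 tested, PT2385 raised 5 and lowered 6, whereas in KO 9 were higher and 17 lower than in WT. That is 22.9% and 54.2% of the 48 tested genes of the list, beside 7.7% and 30.1% of all tested genes. Among the genes lower in KO, MMP1, MMP9, MMP13 and TLL1 passed the count filter in every WT library but not in every KO library. The share of the list was not recomputed without such genes, so the KO share rests in part on that filter. Among the 16 tested genes of folding and modification, 3 rose and 3 fell with PT2385, and 1 rose and 6 fell in KO. SERPINH1, the collagen chaperone HSP47, was among those that changed in both, with a log2 fold change of 0.49 with PT2385 (adjusted p = 7.32e-04) and -0.24 in KO (adjusted p = 0.0171). The prolyl hydroxylase subunit P4HA1 fell in both, by 0.52 on the log2 scale with PT2385 and by 0.85 in KO (adjusted p = 0.00283 and 3.58e-05). SERPINH1 and P4HA1 were picked after their values were seen. Blocking on the replicate number, PT2385 raised 11 and lowered 7 genes of the list, beside 6.83% and 8.45% of all tested genes.

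Of the 9 tested genes of export and processing, 5 rose and 1 fell in KO, where 14.7% of all tested genes were higher and 15.4% lower. MIA3, which helps to load large collagens into vesicles at the endoplasmic reticulum, rose from 89.2, 93.1 and 89.1 CPM in WT to 203, 206 and 182 CPM in KO (log2 fold change 1.14, adjusted p = 3.43e-07). ADAMTS2, a protease that removes the N-propeptide of fibrillar collagens, rose from 5.78, 4.85 and 8.19 CPM to 13.6, 11.1 and 18.0 CPM in KO (log2 fold change 1.19, adjusted p = 0.00169). TLL1, a protease of the C-propeptide, fell from 2.77, 2.47 and 2.76 CPM to 0.926, 0.624 and 1.44 CPM (log2 fold change -1.39, adjusted p = 0.00518). Not every KO library of TLL1 passed the count filter, whereas every WT library did. The KO and WT libraries of MIA3, ADAMTS2 and TLL1 did not overlap. With PT2385 none of MIA3, ADAMTS2 and TLL1 was called, and each differed between KO and PT2385 (adjusted p = 2.10e-04, 4.12e-04 and 0.0336).

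The cross-linking enzymes included genes with large and opposite differences. PXDN, a peroxidase that forms the sulfilimine bonds of type IV collagen, was at 15.7, 12.3 and 13.3 CPM in WT, 9.76, 9.19 and 10.5 CPM with PT2385 and 61.3, 66.0 and 64.6 CPM in KO. It fell with PT2385 (log2 fold change -0.49, adjusted p = 0.0399) and rose in KO (2.23, standard error 0.0978, adjusted p = 4.04e-08), so that PT2385 libraries were the lowest and KO libraries the highest. LOXL2, a lysyl oxidase, fell in both, from 619, 567 and 591 CPM in WT to 351, 345 and 375 CPM with PT2385 (log2 fold change -0.73, adjusted p = 5.89e-06) and 254, 239 and 233 CPM in KO (-1.28, adjusted p = 8.18e-08).

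Of the 6 tested collagenases and gelatinases, 1 rose and 3 fell in KO, against 30.1% of all tested genes called in either direction. The falls were those of MMP13, MMP1 and MMP9. Every WT library of these genes passed the count filter but not every KO library, so their calls rest in part on that filter. MMP13, an interstitial collagenase, was at 10.9, 6.34 and 5.85 CPM in WT and 0.926, 1.87 and 0.481 CPM in KO (log2 fold change -2.79, standard error 0.387, adjusted p = 2.75e-04). MMP1, another interstitial collagenase, fell from 1.42, 1.56 and 2.59 CPM to 1.16, 0.554 and 0.893 CPM (log2 fold change -1.09, adjusted p = 0.0405). MMP9, a gelatinase, fell from 1.42, 2.14 and 1.76 CPM to 0.772, 0.485 and 1.17 CPM (log2 fold change -1.11, adjusted p = 0.034). Every KO library of both genes lay below WT. With PT2385 the log2 fold changes of MMP1 and MMP13 were 0.87 (adjusted p = 0.0652, or 0.0215 with the block) and 0.44 (0.335, or 0.0232 with the block). MMP2, the type IV collagenase, rose from 35.9, 33.4 and 27.2 CPM to 73.3, 71.6 and 50.8 CPM (log2 fold change 1.03, adjusted p = 2.88e-04). Among 8 tested receptors 1 rose with PT2385, and 1 rose and 2 fell in KO, where 30.1% of all tested genes were called. Of 4 genes of the transcription set, 1 fell with PT2385 and 3 fell in KO, beside 4.62% and 15.4% of all tested genes.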

How the data were processed

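Gene counts were analysed for 9 RNAseq libraries. According to the methods and the processing notes, the authors used FastQC for read quality, cutadapt for trimming, STAR for alignment to GRCh38 (hg38) and featureCounts for counting. The deposited values are raw counts without normalization. The annotation release, the strandedness of counting and whether replicates were separate cultures are not given in the sources used here, so p-values measure the spread between these libraries. Totals ran from 11881000 to 14730081 counts.

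Identifiers were matched to symbols with GENCODE 44, which gave a symbol to 58207 of 58735 rows. Groups and replicate numbers came from the sample labels. Members and gene lists were chosen with earlier results of these data known. Each pair of groups was fitted with edgeR 4.0.16 in R 4.3.3 over all genes: TMM scaling, filterByExpr (10 counts), the quasi-likelihood F test, Benjamini-Hochberg adjustment and a threshold of 0.05. Levels are CPM scaled over 9 libraries, or RPKM with the canonical transcript length. Full values are given for chains called in any comparison or with a mean of at least 10 counts. WT and KO values are given for listed pathway genes with an adjusted p under 0.05 and at least a 2-fold change against WT. Simulated log2 changes of 1 were recovered for 77.1% of genes in PT2385 against WT, where 14822 genes were tested, and changes of 1.5 for 97.3%. Smaller changes were not simulated. Of the simulated calls, 6.99% were false in PT2385 against WT, 5.56% in KO against WT and 9.24% in KO against PT2385. Promoter sequences are RefSeq windows of GRCh38.p14.

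Same-numbered WT and PT2385 libraries deviated together from their group means (Pearson r from 0.102 to 0.395 across 11487 genes), so numbers paired these groups. For WT and KO r ran from 0.0290 and for PT2385 and KO from 0.0583, and those groups were treated as unpaired. Alternatives were DESeq2 1.42.0, RLE, upper-quartile and library-size scaling, other count filters, a single model of all libraries, the replicate block, an adjusted p under 0.01 and leaving out each replicate. The length over all annotated exons was added after the data were seen.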

Additional observations from a re-analysis of the deposited data

How the results depend on the processing

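For the 17 tested chains, 695 fold changes were recomputed over 50 pairs of chain and comparison, and none of the called values changed sign. In 675 the call was the same as reported, and 8 pairs changed their call under at least 1 alternative. With PT2385 the number of chains called higher was 3 at an adjusted p under 0.01 and between 3 and 5 when single replicates were left out, with 3 chains without PT2385 replicate 2, without WT replicate 1 or without WT replicate 2. The number called lower with PT2385 was 1 with the replicate block, and 0 under every other setting. In KO against WT between 6 and 7 chains were higher and 4 or 5 lower over all settings, and 7 and 4 whenever a replicate was left out. With the replicate block as well these were 7 and 4, while the calls over all genes went from 4566 to 5501 of 15192. In KO against PT2385 the replicate block gave 6 higher chains in place of 4, adding COL18A1 (adjusted p = 0.0448) and COL17A1 (adjusted p = 0.0455), and 5 lower, while the calls over all genes went from 2897 to 3783 of 15402. Outside the WT and PT2385 pair, libraries correlated best with their own number in 5 of 6 cases for WT and KO and in 4 of 6 for PT2385 and KO.

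Without the filter on low counts, COL16A1 and COL17A1 were called higher in KO than with PT2385 (adjusted p = 0.0403 and 0.0368), which is 6 higher chains. Over all genes, those called with PT2385 numbered 1162 and, with the replicate block, 2305. Leaving out PT2385 replicate 2 gave 574 and WT replicate 2 gave 581, and leaving out WT replicates 1 and 3 gave 654 and 728. In KO against PT2385 there were 2897 calls, and 1836 without PT2385 replicate 2. Other scalings moved the median log2 fold change of all genes by less than 0.1. Chains with fewer than 10 counts a library were beyond what this depth could test.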

Other observations

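Several chains below the count filter were unevenly spread over the groups, and their counts are given without a test. COL13A1, a transmembrane collagen of the neuromuscular junction, had 8, 6 and 6 counts in WT, 4, 5 and 12 with PT2385 and 1, 2 and 1 in KO. COL15A1, a relative of COL18A1 in basement membranes, had 2, 1 and 3 counts in WT, 2, 4 and 1 with PT2385 and 0 in every KO library, which allows up to 3 counts in each. COL4A4 had 0 counts in WT, 0, 1 and 0 with PT2385 and 2, 2 and 3 in KO. COL9A2, a FACIT of cartilage, had the most counts of any chain that was not tested, 52 over the 9 libraries, with 10, 4 and 2 in WT, 7, 7 and 0 with PT2385 and 3, 9 and 10 in KO.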
